A study of Mus musculus with 4 samples.

Results

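The genes described here are the 46 whose symbols begin with Nduf among the 19505 genes named on a Clariom S Mouse array, which carries 22206 gene features. They were taken by symbol from the platform annotation, with the brightest feature where a symbol had several, and each of the 46 had 1 feature. The symbols were split by name into 38 subunit genes and 8 assembly factor genes (Ndufaf). CD8+ T cells of C57/BL6 mice, taken from spleen and lymph nodes, were stimulated for 3 days with beads carrying antibodies to CD3 and CD28, in medium with interleukin 2. The control group was left without spermidine, and the treated group had 25 µM of this polyamine in its medium. Each group had 2 arrays, so all 4 arrays hold activated cells, and no resting cells or other doses were compared. The labels name neither animals nor cultures behind the biological replicates, so the p-values measure only the spread between these arrays, part of which may be technical.

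Complex I, the NADH:ubiquinone oxidoreductase of the inner mitochondrial membrane, passes electrons from NADH to ubiquinone and pumps protons as it does so. It is the entry point of the respiratory chain for NADH made in the citrate cycle and in fatty acid oxidation, and activated CD8+ T cells raise both glycolysis and respiration. The core subunits carry the flavin and the iron-sulfur clusters, accessory subunits surround and stabilise them, and assembly factors build the parts and leave the finished enzyme. The mitochondrially encoded subunits and 1 of the 7 nuclear core subunits were not analysed here.

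The promoter sequences of these genes are described first, since the choice by name did not use them. RefSeq promoters (GRCm38.p6, from 250 bases before to 50 after the annotated start) were given for 41 of the 46 symbols. They were searched on both strands for 4 motifs of factors known for respiratory genes, spelled AAGATGGCG for YY1, CGCNTGCGC for NRF1, CCGGAAG for ETS factors and TCAAGGTCA for the estrogen-related receptors. The YY1 letters were found in 6 of the 41 symbols (14.6%), against 1.64% of all 27025 symbols in the promoter table. The NRF1 letters were found in 10 (24.4% against 7.03%), the ETS letters in 6 (14.6% against 9.93%) and the receptor letters in 0 (against 0.466%), and no sites of different motifs overlapped. The 6 YY1 windows are printed because they include Ndufs7, the core subunit with the smallest p-value of all members. Each window has 30 bases on the gene's strand, 5′ to 3′, with the motif in capitals.
Ndufs7: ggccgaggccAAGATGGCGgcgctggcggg
Ndufaf8: ggcagggcccAAGATGGCGgcgccctcgag
Ndufs6: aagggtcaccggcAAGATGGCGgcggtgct
Ndufc1: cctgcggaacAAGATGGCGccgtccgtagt
Ndufs4: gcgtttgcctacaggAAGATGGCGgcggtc
Ndufa9: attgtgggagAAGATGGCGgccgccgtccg
In all 6 the motif lay on the gene's own strand and after the annotated start, with its first base at position 25 in Ndufs7, 11 in Ndufaf8, 34 in Ndufs6, 23 in Ndufc1, 36 in Ndufs4 and 30 in Ndufa9 (position 1 is the first base of the annotated gene). The letters hold an ATG, and whether it is the start codon is not given in the promoter table. The windows lie at chr10:80249463-80249492 (plus strand), chr11:120098934-120098963 (plus), chr13:73328433-73328462 (minus), chr3:51408914-51408943 (minus), chr13:114388045-114388074 (minus) and chr6:126849096-126849125 (minus), in the same order.

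For NRF1, sites are printed for Ndufb4, the accessory subunit with the largest lower value and the member with the most sites, and for Ndufa6, the single member with both spermidine arrays above both control arrays.
Ndufb4, first base at position -191: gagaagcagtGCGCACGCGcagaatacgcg
Ndufb4, first base at position -79: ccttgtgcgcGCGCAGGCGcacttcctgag
Ndufb4, first base at position -22: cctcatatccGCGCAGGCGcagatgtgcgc
Ndufa6, first base at position 25: cgtggcaccgCGCGTGCGCacgctgaaggg
The 3 Ndufb4 sites match the motif on the opposite strand, at chr16:37654540-37654569, chr16:37654428-37654457 and chr16:37654371-37654400 (windows on the minus strand, as the gene). The Ndufa6 window is chr15:82354248-82354277 (minus strand). The spermidine minus control differences of the 6 members with the YY1 letters ran from -0.52 to -0.19 (log2), all below 0, and those of the 10 with the NRF1 letters from -0.48 to 0.18, 8 of them below 0. Of all 46 members 37 (80.4%) lay below 0, so these counts do not set members with the letters apart. The 46 include 5 without a given promoter, which could not be searched: Ndufs1, Ndufa2, Ndufb9, Ndufa4l2 and Ndufaf6. The median difference was -0.324 in the members with the YY1 letters and -0.115 in those with the NRF1 letters, against -0.152 over all 46. These medians were not tested against each other. Over all measured genes with the same letters, 52.0% of 350 (YY1) and 53.0% of 1594 (NRF1) lay below 0, each with a median of -0.02. A match of letters is a description of the sequence and does not show that a factor binds there.

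Most complex I genes stood a little lower in the spermidine cultures, by less than the replicates varied. Of the 46 genes, 37 had a lower mean with spermidine and 9 a higher one, where 50.9% of all features were lower. The median difference was -0.16 (log2) over the 38 subunit genes and -0.12 over the 8 assembly factors, against -0.01 over all gene features and -0.03 over the 9228 features whose mean lay above background. Individual differences ran from -0.53 (Ndufs1) to 0.49 (Ndufaf6). No member passed the test: 0 of 46 had an adjusted p under 0.05 (limma, Benjamini-Hochberg over all 22206 features), where 0 of all features (0%) did. At an unadjusted p under 0.05 there were 0 members and 1558 features (7.02%), and the lowest adjusted p of a member was 0.717. None of the single-gene values below is therefore a called change. In a bulk culture, fewer cells of a type and less RNA per cell cannot be told apart.

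The arrays gave more structure than the groups. Control replicate 1 lay above control replicate 2 in 39 of the 46 genes, with a median gap of 0.30 (log2). It did so in 49.1% of all features and in 5709 of the 9228 above background, where the median gap was 0.10. Spermidine replicate 1 lay above spermidine replicate 2 in 32 of the 46 genes, with a median gap of 0.20. It did so in 52.5% of all features and in 5665 of the 9228 above background, where the median gap was 0.10. Taken as each subunit gene's signal minus its mean over the 4 arrays, the median over the 38 was 0.25 and -0.04 on the control arrays and -0.03 and -0.17 on the spermidine arrays. One control array thus stood high and 1 spermidine array low, while the other control and spermidine arrays lay next to each other. Over the features above background the same medians were 0.063 and -0.023 on the control arrays and 0.036 and -0.065 on the spermidine arrays. The order of the arrays was therefore not particular to the Nduf genes. In 14 members both spermidine arrays lay below both control arrays, or 30.4% of members against 18.4% of all features and 22.5% of features above background. In 1 member, Ndufa6, they lay above (18.3% of all features), and in 31 the groups overlapped. In 39 of the 46, the larger of the 2 within-group gaps exceeded the group difference. The 7 exceptions, or 15.2% against 24.5% of all features, were Ndufs1, Ndufs7, Ndufa3, Ndufa13, Ndufs4, Ndufs3 and Ndufa6.

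**Figure D1:**
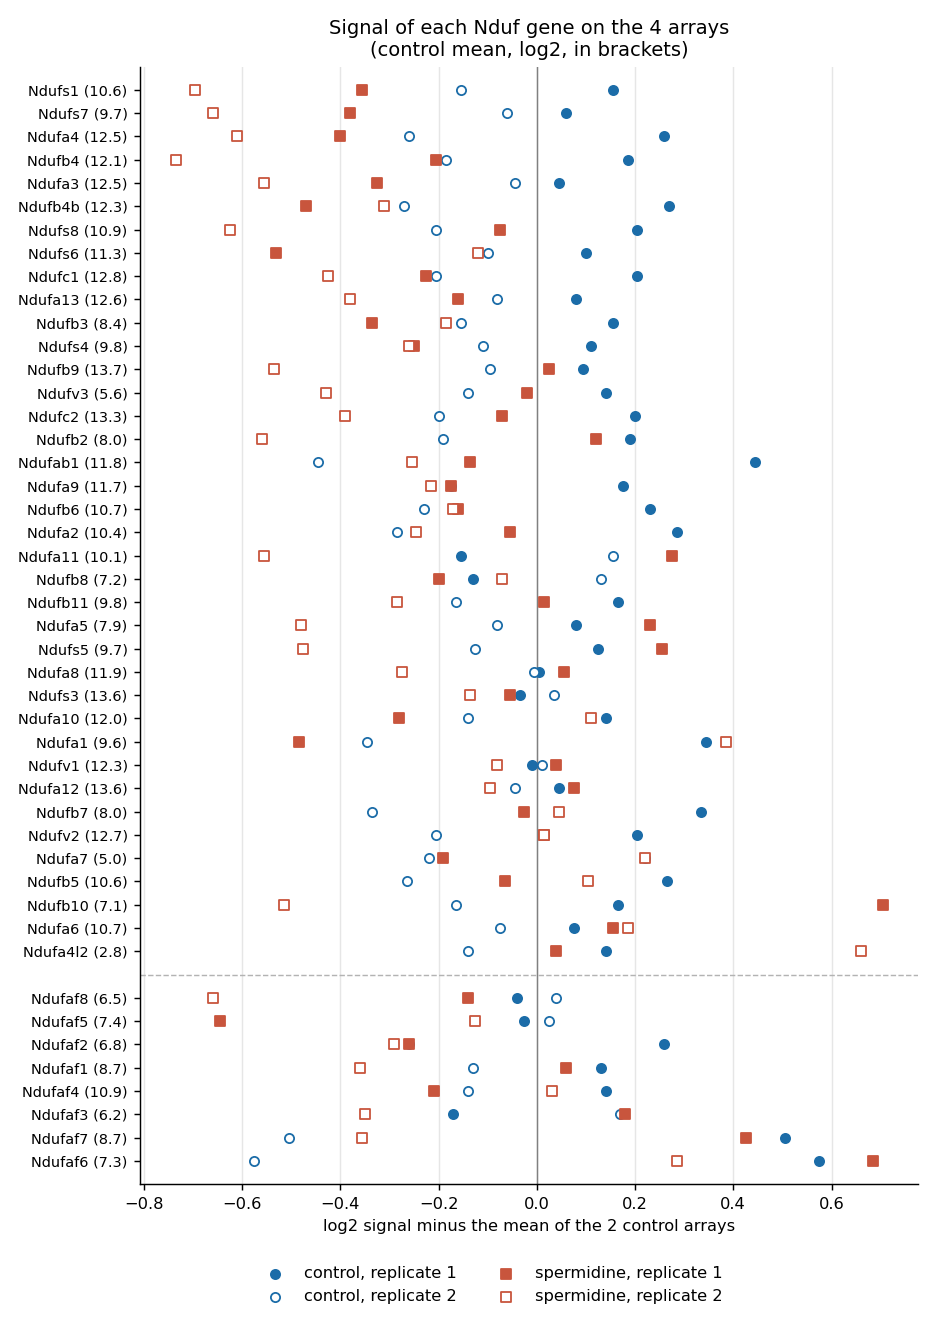
Log2 signal of each of the 46 Nduf genes on the 4 arrays, drawn as the distance from that gene's mean over the 2 control arrays, with that mean in brackets; subunit genes stand above the dashed line and Ndufaf assembly factors below it, each sorted by the group difference. In the upper rows the spermidine squares lie left of the control circles, and control replicate 1 lies right of control replicate 2 in 39 of the 46 genes.

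The size of the subunit median depended on which arrays were used, and its sign did not. Without control replicate 1 the median was -0.04, close to the -0.02 over all features in that setting, and 23 of 38 subunit genes were lower. Without control replicate 2 it was -0.36 with 35 lower, without spermidine replicate 1 it was -0.27 with 30 lower, and without spermidine replicate 2 it was -0.07 with 25 lower. The count of subunit genes whose groups did not overlap on the lower side was 12 with all arrays (31.6%, against 18.4% of all features). It ran from 13 to 26 when 1 array was left out, since 3 arrays separate more easily. The share of all features in those settings is not given here, so whether these counts exceed it is not known. The assembly factor median ran from -0.02 without control replicate 1 to -0.32 without control replicate 2 or without spermidine replicate 1, and stood at -0.04 without spermidine replicate 2.

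The core of the NADH-binding tip held the lowest member and 2 genes with values close to 0. Ndufs1, the largest subunit of the tip, which carries iron-sulfur clusters, read 10.73 and 10.42 (log2 signal) on the control arrays and 10.22 and 9.88 on the spermidine arrays. Both spermidine signals lay below both control signals. The means were 10.58 ± 0.22 and 10.05 ± 0.24 (SD, n = 2 each), a 1.44-fold lower level with spermidine and a log2 difference of -0.53 ± 0.25 (SE; 95% interval -1.10 to 0.04; limma adjusted p = 0.727). Ndufv1, which binds NADH and the flavin, read 12.27 and 12.29 in control and 12.32 and 12.20 with spermidine. Its control signals lay between the spermidine signals, and the difference was -0.02 with an interval from -0.53 to 0.49. Ndufv2, the iron-sulfur partner of Ndufv1, read 12.88 and 12.47 in control and 12.69 on each spermidine array, a difference of 0.02 (interval -0.54 to 0.57). For these genes the intervals leave room for changes of about the size fitted for Ndufs1.

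In the quinone-binding arm all 3 measured core genes were lower. Ndufs7 carries the last iron-sulfur cluster before the quinone. It read 9.73 and 9.61 in control and 9.29 and 9.01 with spermidine, and the groups did not overlap. Its means were 9.67 ± 0.09 and 9.15 ± 0.20 (SD, n = 2 each), with a difference of -0.52 ± 0.23 (SE; 95% interval -1.06 to 0.01; limma adjusted p = 0.717). Of the 46 genes it had the smallest p-value, and its interval just reached 0. Leaving out 1 array gave values between -0.66 and -0.38 for Ndufs7, and between -0.70 and -0.36 for Ndufs1. As the groups of both genes did not overlap, such values must lie below 0. Ndufs8, a further iron-sulfur subunit of this arm, read 11.15 and 10.74 in control and 10.87 and 10.32 with spermidine. Its groups overlapped, and the difference of -0.35 became -0.07 without spermidine replicate 2. Ndufs3, a core subunit without a cluster, read 13.56 and 13.63 in control and 13.54 and 13.46 with spermidine. It had the smallest SE of the members (0.22) and a difference of -0.09.

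**Figure D2:**
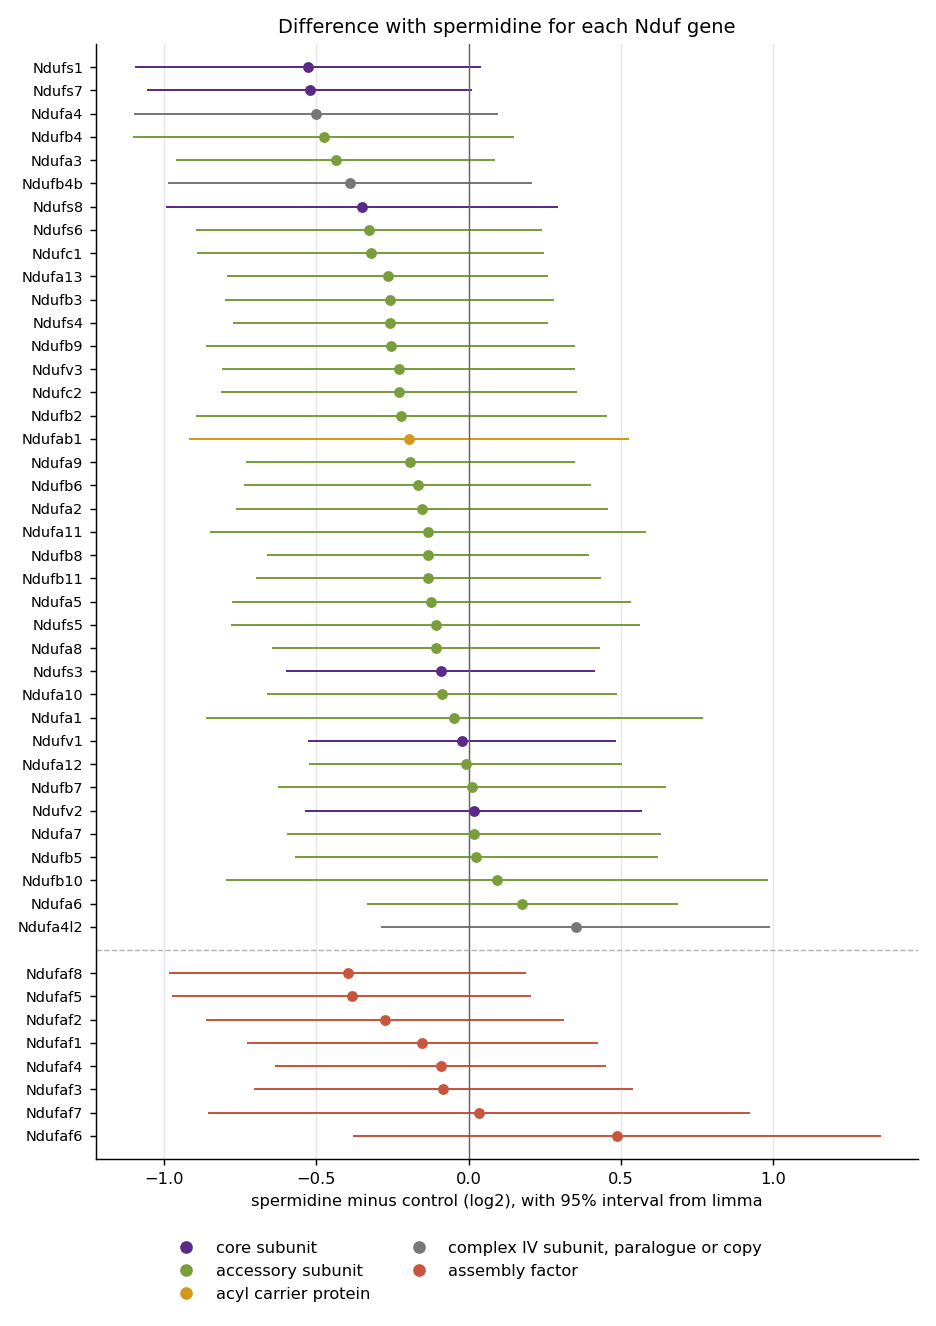
Spermidine minus control difference of each Nduf gene (log2, horizontal axis) with its 95% interval from limma, coloured by role. The points lie mostly left of 0, from -0.53 for Ndufs1 to 0.49 for Ndufaf6, and every interval includes 0.

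The accessory subunits, small proteins around the core, numbered 29 with the acyl carrier protein Ndufab1. Of these, 24 were lower and 5 higher, with a median of -0.15. The median was -0.15 in the 9 genes of the matrix arm and -0.13 in the 19 measured genes of the membrane arm. Of the 28 without Ndufab1, the 6 with the largest differences among those whose groups did not overlap were all lower. Ndufb4, in the membrane arm, read 12.24 and 11.87 in control and 11.85 and 11.32 with spermidine, a difference of -0.48. The second control array and the first spermidine array lay almost together. Ndufa3, a small protein of the membrane arm, read 12.55 and 12.46 against 12.18 and 11.95, a difference of -0.44 ± 0.23 (SE; limma adjusted p = 0.745). Here the control arrays lay close together and the spermidine arrays apart from them.

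Ndufs6, a zinc-binding subunit of the matrix arm, read 11.38 and 11.18 in control and 10.75 and 11.16 with spermidine, a difference of -0.33. One spermidine array was at the control level. Ndufc1, in the membrane arm, read 12.99 and 12.58 against 12.56 and 12.36, a difference of -0.32. Its second control array and first spermidine array were again nearly equal. Ndufa13, also known as GRIM-19, read 12.68 and 12.52 against 12.44 and 12.22, a difference of -0.27. Ndufb3, in the membrane arm, read 8.53 and 8.22 against 8.04 and 8.19, a difference of -0.26. These 6 were picked because their groups did not overlap, so a value without 1 array must also lie below 0. The value nearest to 0 was -0.21 for Ndufb4, -0.32 for Ndufa3, -0.12 for Ndufs6, -0.11 for Ndufc1, -0.16 for Ndufa13 and -0.11 for Ndufb3.

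Apart from Ndufab1, the 4 accessory genes with the widest replicate gaps are given next, and in each the gap exceeded the group difference. The same held in 25 of the 29 accessory genes, with Ndufb4, Ndufs6, Ndufc1 and Ndufb3 among them. Ndufb10, on the intermembrane space side, read 7.26 and 6.93 in control and 7.80 and 6.58 with spermidine. The spermidine arrays were the highest and the lowest of the 4, with a gap of 1.22 (log2), the widest of any member. Ndufa1, a short membrane protein encoded on the X chromosome, read 9.97 and 9.28 in control and 9.14 and 10.01 with spermidine. Its replicates crossed, and the difference of -0.05 has an interval from -0.86 to 0.77. Ndufa11, a membrane protein, read 9.92 and 10.23 against 10.35 and 9.52. Ndufs5, on the intermembrane space face, read 9.78 and 9.53 against 9.91 and 9.18. In both, the 2 control signals lay between the spermidine signals, and the differences were -0.13 and -0.11. Without 1 array Ndufa11 ran from -0.55 to 0.28 and Ndufs5 from -0.47 to 0.26.

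Ndufab1, the mitochondrial acyl carrier protein that also serves fatty acid synthesis, read 12.23 and 11.34 in control and 11.65 and 11.53 with spermidine. The spermidine signals lay inside a control gap of 0.89, and the difference of -0.20 became 0.25 without control replicate 1. Its binding partner Ndufa6 read 10.73 and 10.58 in control and 10.81 and 10.84 with spermidine. The difference was 0.18 ± 0.22 (SE; limma adjusted p = 0.908), and the groups did not overlap. Ndufs4, whose loss causes complex I deficiency in mice and humans, read 9.94 and 9.72 against 9.58 and 9.57, a difference of -0.26 with the groups apart. Ndufa6 and Ndufs4 are named here after their values were seen. The other 16 accessory subunit genes had differences from -0.26 (Ndufb9) to 0.02 (Ndufb5), and their groups all overlapped. Of all 46 members, 5 had mean signals below 6.35, the mean of the arrays' 95th percentiles over 23 antigenomic background features, a measure of unspecific signal. They were Ndufv3, Ndufa7, Ndufa4l2, Ndufaf8 and Ndufaf3, and their signals there may hold little that is specific.

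Some symbols carry the Nduf name without being complex I subunits of their own. Ndufa4, now assigned to complex IV, read 12.74 and 12.22 in control and 12.08 and 11.87 with spermidine. The groups did not overlap, and the difference was -0.50 ± 0.26 (SE; limma adjusted p = 0.742). Without 1 array it ranged from -0.76 to -0.24, and with groups apart it must stay below 0. Its paralogue Ndufa4l2, known as a hypoxia-induced gene, read 2.97, 2.69, 2.87 and 3.49, all below background. Ndufb4b, named as a copy of Ndufb4, read 12.57 and 12.03 against 11.83 and 11.99, a difference of -0.39. Signals of Ndufb4 and Ndufb4b may share transcripts, so both are uncertain. Without Ndufa4, Ndufa4l2 and Ndufb4b the other 35 subunit genes had a median of -0.15, with 29 lower. In 10 the groups did not overlap on the lower side (28.6%, against 18.4% of all features).

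**Figure D3:**
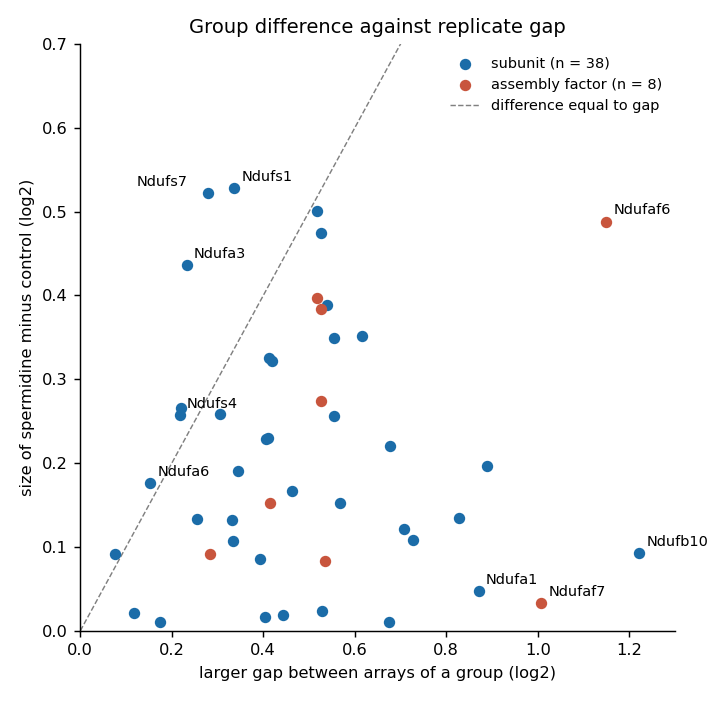
Size of the spermidine minus control difference (log2, vertical axis) against the larger of its control and spermidine replicate gaps (log2, horizontal axis) for 38 subunit and 8 assembly factor genes; on the dashed line both are equal. Only 7 of the 46 points lie above the line, all of them subunit genes, with Ndufs1, Ndufs7 and Ndufa3 farthest from it.

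Among the 8 assembly factors 6 were lower and 2 were higher. In 2 (25%, against 18.4% of all features) both spermidine arrays lay below both control arrays. Ndufaf8 and its partner Ndufaf5, a hydroxylase that modifies Ndufs7, were those 2. Ndufaf8 read 6.47 and 6.55 in control and 6.37 and 5.85 with spermidine, a difference of -0.40 near background. Ndufaf5 read 7.41 and 7.46 in control and 6.79 and 7.31 with spermidine, a difference of -0.38. In each, the control arrays agreed closely and 1 spermidine array was nearly level with them. The differences became -0.14 for Ndufaf8 without spermidine replicate 2 and -0.12 for Ndufaf5 without spermidine replicate 1.

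Ndufaf3 and Ndufaf4 act together early in building the quinone-binding arm. Ndufaf3 read 6.0 and 6.34 in control and 6.35 and 5.82 with spermidine, and Ndufaf4 read 11.06 and 10.78 in control and 10.71 and 10.95 with spermidine. Both overlapped, with differences of -0.08 and -0.09. Ndufaf1, part of the assembly complex for the membrane arm, read 8.86 and 8.60 against 8.79 and 8.37, a difference of -0.15. Ndufaf2, a paralogue of the subunit Ndufa12 that acts late, read 7.03 and 6.51 against 6.51 and 6.48. Only control replicate 1 stood apart there, and the difference of -0.27 became -0.01 without it.

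The remaining pair had the widest control gaps of any member. Ndufaf6, which takes part in assembling the membrane arm, read 7.84 and 6.69 in control and 7.95 and 7.55 with spermidine. Its difference of 0.49 ± 0.38 (SE; limma adjusted p = 0.835) was the largest positive one and became -0.09 without control replicate 2. Ndufaf7, an arginine methyltransferase acting on a core subunit, read 9.19 and 8.18 in control and 9.11 and 8.33 with spermidine. Both replicate 1 arrays were high and both replicate 2 arrays low, and the group difference was 0.03, with values from -0.47 to 0.54 when 1 array was left out. Of 11 further assembly factors with other names, such as Ecsit and Acad9, 10 were measured. Of these 4 were lower and 6 higher, with a median of 0.05, and 0 passed the test (limma; 0 at an unadjusted p under 0.05).

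The subunits of complexes II to V, which take the electrons on or make ATP from the proton gradient, had a median difference close to that of complex I. Of 38 measured genes 30 were lower, with a median of -0.18 against -0.16 for the 38 Nduf subunit genes. In 7 genes of complexes II to V both spermidine arrays lay below both control arrays (18.4%, as over all features). This held in 12 of the 38 Nduf subunit genes (31.6%), which include Ndufa4, Ndufa4l2 and Ndufb4b. Without those genes the Nduf median was -0.15, and 10 of 35 (28.6%) had groups apart on the lower side. By complex the median was -0.20 in complex II (4 genes), -0.17 in complex III (9), -0.20 in complex IV (10) and -0.14 in complex V (15). None passed the test (limma, 0 of 38, with 1 at an unadjusted p under 0.05). The arrays had the same order: the median distance from the gene's mean was 0.24 and -0.02 on the control arrays and 0.04 and -0.18 on the spermidine arrays. No difference between complex I and the other complexes was tested.

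**Figure D4:**
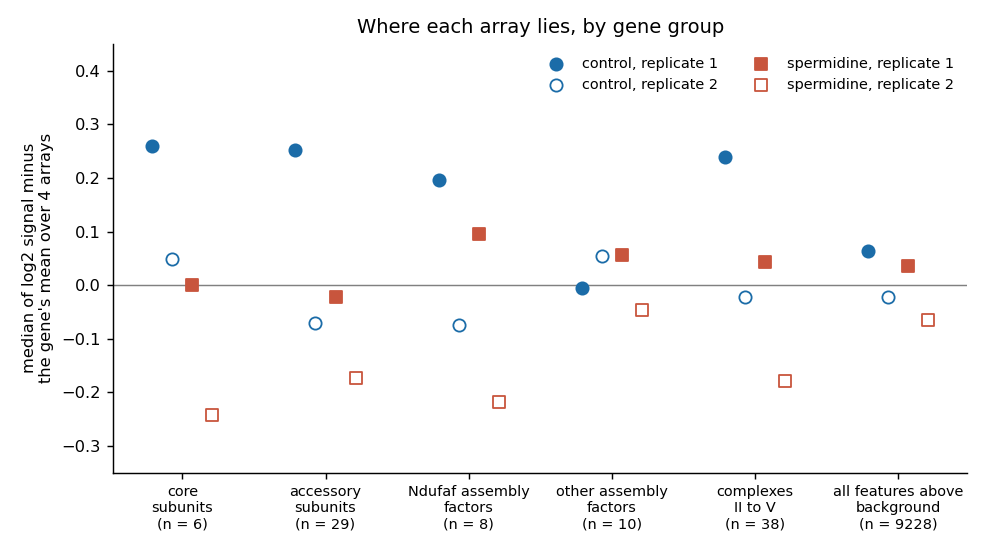
Median over the genes of a group of log2 signal minus the gene's mean over the 4 arrays (vertical axis), for each array; Ndufab1 is counted with the accessory subunits. In the core, accessory and complexes II to V groups, and over features above background, control replicate 1 is highest and spermidine replicate 2 lowest. The other control and spermidine arrays lie between them.

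Array medians over all gene features lay between 5.13 and 5.25 (log2), and correlations between arrays ran from 0.989 to 0.994. The 6 CD8 T cell markers all lay above background, with Cd8a at 16.57 to 16.68, while Cd4 stood at 6.59 to 7.24. No marker of CD8 T cells or of the other cells listed below passed the test (limma, lowest adjusted p = 0.637). At an unadjusted p under 0.05 (limma) there were 2 of 5 B cell, 1 of 2 CD4 T cell and 1 of 5 macrophage markers. There were 0 of 6 CD8 T cell and 0 of 3 NK cell markers, where 7.02% of all features were. Over all features, both spermidine arrays lay below both control arrays in 18.4% and above them in 18.3%. Of the 2 measured CD4 T cell markers, Cd4 had a log2 difference of -0.06, and Zbtb7b read 6.32 and 6.88 in control and 7.32 and 7.41 with spermidine, a difference of 0.76 with groups apart. Of 5 measured B cell markers all were higher with spermidine, 3 of them with groups apart. Of the 5, 2 had means above background, and the summed level of all 5 (log2) was 8.48 to 8.59 in control and 8.83 to 9.20 with spermidine. The 5 measured macrophage markers all had means below background. Of these 3 were higher, with Lyz2 at 0.86, and 2 lower, Itgam at -0.41 with groups apart and Csf1r at -0.35, and the summed level was 6.03 to 6.05 in control and 6.25 to 6.34 with spermidine. The spike-in control transcripts, added to every sample during processing, were higher with spermidine in 7 of 8 features without overlap, by 0.44 on average. The 6 CD8 markers had a median log2 difference of -0.19, 4 of them with groups apart on the lower side. Of the 3 measured NK cell markers, Eomes, which activated CD8+ T cells also express, made up nearly all of the summed level (12.49 to 13.59 in control and 11.87 to 13.24 with spermidine) and had a difference of -0.50. The others were higher, Klrb1c by 0.11 with overlapping groups and Ncr1 by 0.44 with groups apart, at signals below background. The part of these differences in the values of the complex I genes was not tested.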

How the data were processed

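The authors deposited 1 log2 signal for each feature and array, computed in Affymetrix Expression Console by RMA according to the submitters' processing notes; versions and the annotation's genome build are not given in the sources used here. RMA corrects background, normalizes by quantiles and summarises probes. The log2 scale was inferred from the values. The highest signals were 19.74 to 19.93, so a further rescaling may have been applied; whether one was stays unknown, and so does how far differences of dim and bright features are compressed. RNA input was 250 ng. Of 28846 features, 6640 control features were left out and 22206 tested; 19572 had 1 symbol and 2634 none. All 46 Nduf symbols matched a RefSeq table (GRCm38.p6, used for names) by Entrez identifier, 0 changed. Groups came from the sample titles.

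Spermidine was compared with control by limma 3.58.1 under R 4.3.3 (lmFit, eBayes; residual degrees of freedom 2, prior 5.96). The test was two-sided, and p-values were adjusted over 22206 features by Benjamini-Hochberg with a threshold of 0.05. With 2 arrays a group, exact permutation gives no p under 0.333. Arrays have no depth, and their number limits precision; the median SE was 0.246. Intervals are 95% intervals from limma. Values on every array are given for core subunits, assembly factors, Ndufab1, Ndufa4 and Ndufa4l2, and for the 6 accessory subunits with the largest non-overlapping differences and the 4 with the widest replicate gaps. Alternatives were the prior variance, array weights, normalization, a filter on low values, features per symbol, the replicate block, the threshold, the summary and leaving out each array. The members, lists, motifs and rules were chosen with earlier results of these data known. No list was tested as a set.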

Additional observations from a re-analysis of the deposited data

Results flagged for a closer look

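The spike-in control features, which lie outside the gene measurements, were higher in the spermidine arrays by a mean of 0.439 (log2 difference over 8 features). Their mean signals were 7.67 and 7.58 on the control arrays and 7.98 and 8.15 on the spermidine arrays. They stand apart because they were higher on the spermidine arrays and were left out of the gene comparison. The lys, phe and thr features lay below the background level of 6.35, and thr overlapped between the groups. Whether a like offset enters the gene values was not tested.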

How the results depend on the processing

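The count of 0 Nduf genes past the threshold was the same under each of the 14 alternatives tried. Over all features the count was 0 and became 1 with an intensity trend in the prior variance, median centring, cyclic loess, only features above the median level, the replicate block or an adjusted p threshold of 0.25. It stayed 0 without any 1 array. With the replicate number as a block, 1 feature and 0 Nduf genes passed, and Ndufs1 and Ndufs7 had adjusted p-values of 0.433 and 0.441 (limma). Deviations of same-numbered arrays correlated at 0.21 over all features and -0.08 over the 46 Nduf genes (correlations across genes, which are not independent replicates), and nothing in the labels says that the numbers pair cultures. The subunit median kept its sign throughout, from -0.357 to -0.036 without 1 array and from -0.179 to -0.120 otherwise. Where it was -0.036, without control replicate 1, the median over all features was -0.016. The subunit median was -0.152 without Ndufa4, Ndufa4l2 and Ndufb4b and -0.167 above background (chosen after seeing the data). The assembly factor median ran from -0.320 to -0.016 without 1 array. The 12 subunit genes with groups apart on the lower side were 31.6% of 38, against 18.4% of all features and 22.5% of those above background. They became 8 after a further quantile normalization, 10 after median centring, 9 after cyclic loess and 13 to 26 without 1 array. The share of all features after these steps is not given here, so whether an excess remained is not known. Subunit genes that were lower numbered 29, 32 and 29 after the same 3 normalizations, where 31 were lower before. Ndufv1 turned to 0.048 and 0.033 after quantile normalization and cyclic loess, and Ndufa1 to 0.006 after the first. Of 27 named members, 12 changed sign in at least 1 setting without an array, with these ranges: Ndufab1 -0.641 to 0.248, Ndufaf4 -0.234 to 0.049, Ndufa1 -0.483 to 0.388, Ndufs5 -0.472 to 0.255, Ndufaf3 -0.349 to 0.184, Ndufv2 -0.185 to 0.218, Ndufaf7 -0.470 to 0.537, Ndufaf6 -0.087 to 1.062, Ndufb10 -0.518 to 0.704, Ndufa11 -0.548 to 0.280, Ndufaf1 -0.359 to 0.055 and Ndufv1 -0.081 to 0.038. The cause was not tested.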
